A study of Mus musculus with 30 samples.

Results

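The genes described here encode 9 subunits of the Polycomb repressive complexes, namely Ezh1, Ezh2, Eed, Suz12, Jarid2, Cbx2, Cbx7, Bmi1 and Rnf2. They were picked by gene symbol, not by a threshold on their values, but with earlier results of these data known. All 9 were among the 14525 genes tested of 14685 in the expression table. RNA-seq was carried out on mouse E14 embryonic stem cells (ESC) and on 4 populations differentiated from them towards blood. The populations were Flk1+ cells, the mesoderm fraction isolated from embryoid bodies by magnetic sorting, and 3 fractions sorted from day 2 blast cultures. These were haemogenic endothelium 1 (HE1, KIT+ CD41- Tie2+), haemogenic endothelium 2 (HE2, KIT+ CD41+ Tie2+) and progenitors (KIT+ CD41+ Tie2-). Each population was taken from 3 genotypes. WT cells served as the control, Sp1 ΔDBD/ΔDBD cells (Sp1_deltaDBD in the labels) lacked the DNA-binding domain of the transcription factor Sp1, and Sp3-/- cells (Sp3KO) lacked its paralogue Sp3. This gave 15 groups of 2 biological replicates, 30 samples in all. Each genotype was 1 ES cell line, so that a difference between genotypes and a difference between lines cannot be told apart. ESC were maintained on feeder fibroblasts, which were removed by passage before differentiation.

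Polycomb repressive complex 2 (PRC2) methylates lysine 27 of histone H3, and Polycomb repressive complex 1 (PRC1) ubiquitinates lysine 119 of histone H2A. Both marks accompany the repression of developmental regulators in embryonic stem cells, where the complexes sit on CpG-rich promoters, and the subunit make-up of both complexes is known to change on differentiation. In PRC2, Ezh2 and Ezh1 are alternative methyltransferases, Eed and Suz12 complete the core, and Jarid2 is an accessory subunit. In PRC1, Rnf2 (Ring1b) is the ubiquitin ligase, Bmi1 (Pcgf4) its Polycomb group ring finger partner, and Cbx2 and Cbx7 are alternative chromobox proteins that bind methylated lysine 27. Sp1 and Sp3 are zinc finger proteins that bind GC boxes.

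Because the mutated factors bind GC boxes, the 250 bases upstream of each RefSeq transcription start (GRCm38.p6) were searched for GGGCGG and its reverse complement CCGCCC, overlapping matches included. Entries were found for 8 of the 9 genes, with 2 start sites for Jarid2, and there was none for Cbx2. The windows of 4 genes are shown 5′ to 3′, with the GC box letters in capitals: Cbx7, which differed most between genotypes, Suz12, which was lower in Sp3-/- cells, Bmi1, which held the most GC boxes, and Ezh2, which held none.
Cbx7 (chr15:79932647-79932896, minus strand): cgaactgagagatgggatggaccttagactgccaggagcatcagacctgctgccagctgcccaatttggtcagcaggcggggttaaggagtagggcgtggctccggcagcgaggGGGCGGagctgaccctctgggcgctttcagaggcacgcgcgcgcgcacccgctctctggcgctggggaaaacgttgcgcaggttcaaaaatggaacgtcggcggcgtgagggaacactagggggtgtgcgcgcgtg
Suz12 (chr11:79992856-79993105, plus strand): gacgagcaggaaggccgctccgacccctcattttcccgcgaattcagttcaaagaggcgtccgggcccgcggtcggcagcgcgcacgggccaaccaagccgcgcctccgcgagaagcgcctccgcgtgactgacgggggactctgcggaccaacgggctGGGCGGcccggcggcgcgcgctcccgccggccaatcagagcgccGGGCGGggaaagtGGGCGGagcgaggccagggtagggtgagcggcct
Bmi1 (chr2:18676768-18677017, plus strand): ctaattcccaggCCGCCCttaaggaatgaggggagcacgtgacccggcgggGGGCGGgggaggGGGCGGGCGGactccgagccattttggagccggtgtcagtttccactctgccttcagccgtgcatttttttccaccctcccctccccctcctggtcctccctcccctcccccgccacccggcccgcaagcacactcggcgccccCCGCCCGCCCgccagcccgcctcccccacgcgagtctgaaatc
Ezh2 (chr6:47595031-47595280, minus strand): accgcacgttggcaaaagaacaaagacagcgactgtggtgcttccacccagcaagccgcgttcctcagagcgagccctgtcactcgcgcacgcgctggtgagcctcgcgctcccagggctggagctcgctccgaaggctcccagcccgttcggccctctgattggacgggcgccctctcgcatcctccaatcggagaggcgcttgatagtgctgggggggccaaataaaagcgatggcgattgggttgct
The Bmi1 window held 6 GC boxes, the Suz12 window 3, the Rnf2 window 2, the Cbx7 window and each Jarid2 window 1, and the Ezh1, Ezh2 and Eed windows 0. At least 1 GC box was found in 56.0% of the 13965 windows of genes tested and in 32.7% of all 32851 windows. At least 3 were found in 16.1% and at least 6 in 1.7% of the windows of genes tested. The Ezh2 window held 3 copies of CCAAT or its reverse complement ATTGG, the letters recognised by NF-Y, and 4.05% of the windows of genes tested held as many. The 9 windows held between 12 and 37 CpG dinucleotides. The median was 6 over all 32851 windows, those of genes not tested included, and was not taken over the genes tested alone. These matches are letters only, and binding was not measured here. Cbx7 is annotated at chr15:79915807-79971119 on the minus strand (GENCODE, GRCm38), so that the window shown lies inside the longest annotated span of the gene. The Ezh2 window and each Jarid2 window likewise lie inside the annotated span of their gene. The genes other than Cbx7 lie on chromosomes 11 (Ezh1, Suz12 and Cbx2), 6 (Ezh2), 7 (Eed), 13 (Jarid2), 2 (Bmi1) and 1 (Rnf2).

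Levels are given in FPKM, fragments per kilobase of transcript scaled to the mapped reads of a library, a unit that allows genes to be compared per length. The authors quantile normalised the table, so that the median over all genes was 7.19 FPKM in every sample, and the sequencing depth is not known from it. Differences are given as log2 fold changes of FPKM + 0.1, which understate the change of genes with low values. They were tested with limma across all genes, and a gene was called at a Benjamini-Hochberg adjusted p under 0.05. The populations carried the markers of their labels: the summed level of 5 ESC markers was 1086 to 1331 FPKM in ESC and 0.142 to 2.16 FPKM in the populations sorted from blast culture. The sum of 5 haemogenic endothelium markers was 749 to 1148 FPKM in HE1, 366 to 569 FPKM in HE2 and 120 to 162 FPKM in progenitors. Sp3 RNA was lower in Sp3-/- cells in all 5 populations, by log2 fold changes of -2.40 to -3.32. Sp1 RNA in Sp1 ΔDBD/ΔDBD cells had log2 fold changes of -0.10 to -0.76 and was called in 3 of 5 populations, which is no check of a deletion within the transcript. In bulk samples, fewer cells that express a gene and less RNA per cell cannot be told apart.

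In WT cells the subunits fell into different orders of abundance as differentiation went on. Jarid2, Eed and Suz12 were the most abundant of the 9 in ESC, with mean levels of 114, 100 and 90.1 FPKM, whereas Suz12, Ezh2 and Rnf2 led in progenitors with 56.7, 38.2 and 29.2 FPKM. Cbx7 was at 36.5 FPKM in ESC and the lowest of the 9 in progenitors at 0.738 FPKM, and Bmi1 moved the other way, from the lowest in ESC at 1.84 FPKM to 18.6 FPKM in progenitors. Summed over the 9 genes, the level was 423 and 473 FPKM in the 2 WT ESC samples, 148 and 148 FPKM in HE1, and 239 and 177 FPKM in progenitors. The populations accounted for the largest share of the variance of each of the 9 genes, from 53.9% for Rnf2 to 96.4% for Eed, beside a median of 70.7% over all genes. The genotypes accounted for 0.416% (Jarid2) to 17.3% (Cbx7), beside a median of 6.97%.

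**Figure D1:**
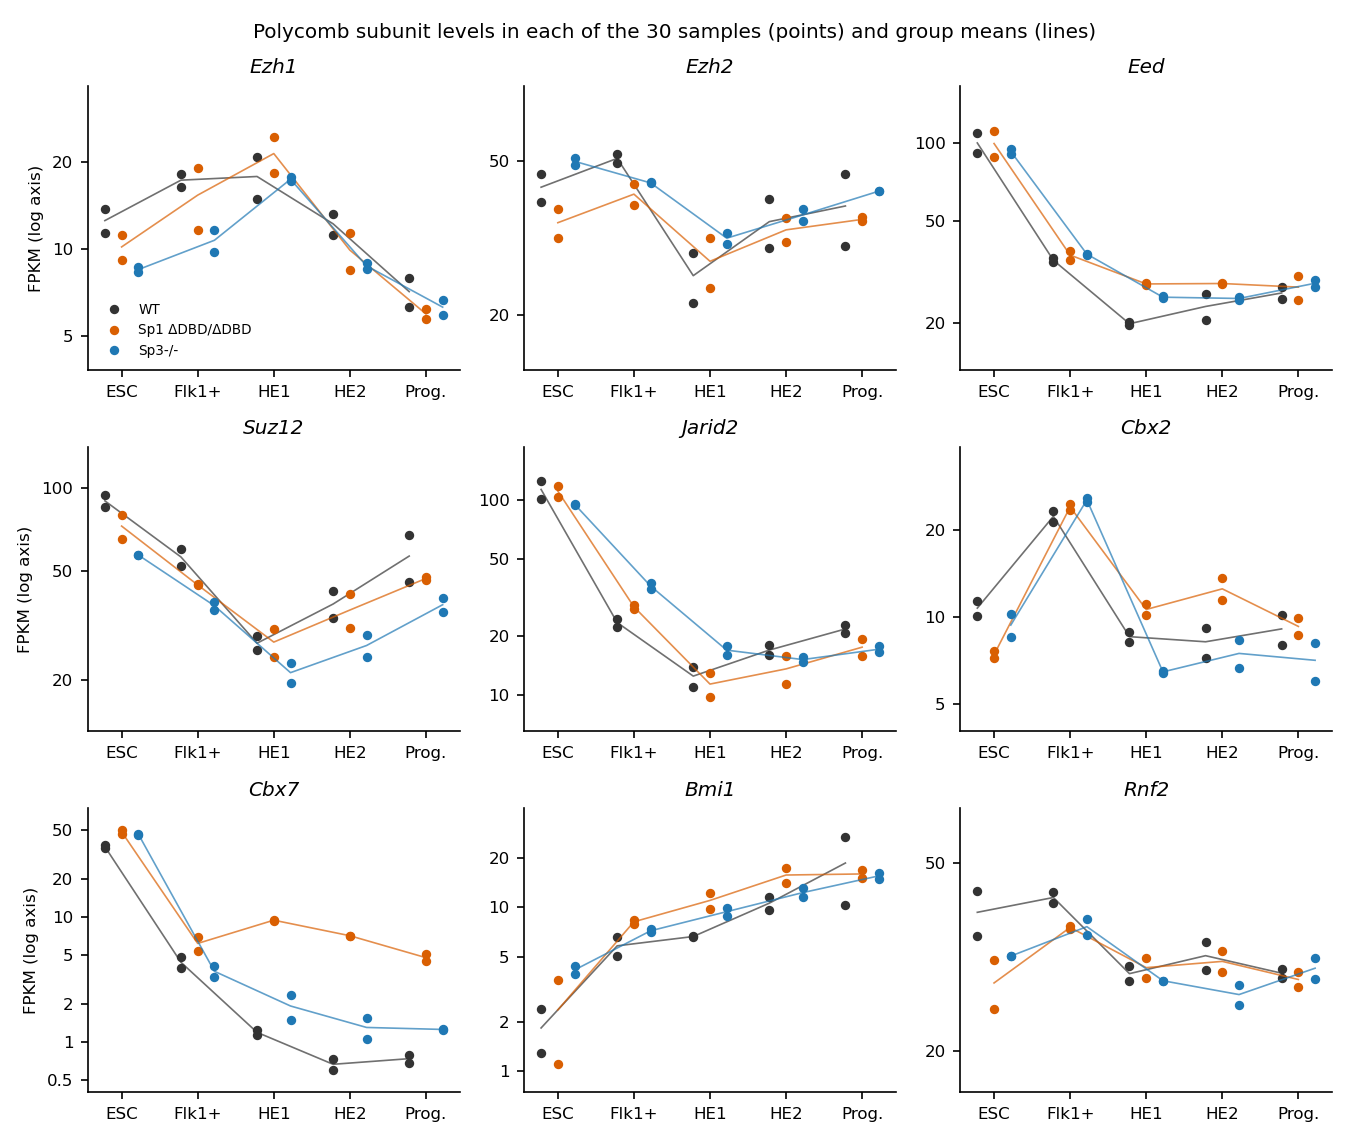
Level of the 9 Polycomb subunit genes in FPKM on a log axis, 1 panel per gene, against the population (ESC, Flk1+, HE1, HE2, progenitors). Each point is 1 sample and each line joins the means of the 2 replicates of a genotype, in black for WT, orange for Sp1 ΔDBD/ΔDBD and blue for Sp3-/-. The lines of the 3 genotypes lie close together except for Cbx7, where the orange line stays at 4.74 to 9.44 FPKM in HE1, HE2 and progenitors while the black line lies at 0.665 to 1.2 FPKM.

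Of 36 tests of the 9 genes over the 4 consecutive steps in WT cells, 16 were called, 3 of them higher and 13 lower, where 35.1% of such tests were called over all genes. Between ESC and Flk1+ cells 6 of the 9 genes changed (52.2% of all genes), and between Flk1+ cells and HE1 7 changed, all of them lower (53.0% of all genes, 29.5% lower). The median log2 fold change of the 9 genes at that second step was -0.92, beside -0.08 over all genes. Fewer calls were made at the later steps, with 1 of 9 between HE1 and HE2 (21.9% of all genes) and 2 of 9 between HE2 and progenitors (13.2%).

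Among the PRC2 genes, Jarid2, which helps to bring PRC2 to chromatin, showed the widest range. It was at 102 and 126 FPKM in the WT ESC samples, 24.6 and 22.4 FPKM in Flk1+ cells, 11 and 13.9 FPKM in HE1, 16 and 17.9 FPKM in HE2, and 22.7 and 20.8 FPKM in progenitors. Only the Flk1+ and progenitor samples overlapped among neighbours in this order. Jarid2 fell between ESC and Flk1+ cells by 2.27 on the log2 scale (SE 0.16, limma adjusted p = 1.06e-09) and again between Flk1+ cells and HE1 by 0.92 (SE 0.16, limma adjusted p = 9.99e-05).

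Eed, the subunit that binds trimethylated lysine 27, followed a similar course, with 91.3 and 109 FPKM in ESC, 35.7 and 34.5 FPKM in Flk1+ cells, 19.7 and 20.2 FPKM in HE1, 25.9 and 20.6 FPKM in HE2, and 27.6 and 24.8 FPKM in progenitors. The ESC samples stood apart from all others, and only HE2 and progenitors overlapped. Both early falls were called, at log2 fold changes of -1.50 (SE 0.13, limma adjusted p = 8.33e-09) and -0.81 (SE 0.13, limma adjusted p = 2.32e-05).

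Suz12, a core subunit needed for the stability of PRC2, was at 94.4 and 85.9 FPKM in ESC, 52.2 and 60.4 FPKM in Flk1+ cells, 28.9 and 25.7 FPKM in HE1, 42.3 and 33.6 FPKM in HE2, and 67.9 and 45.5 FPKM in progenitors. Progenitors overlapped with Flk1+ cells. The first fall was -0.68 (SE 0.18, limma adjusted p = 0.00359) and the second -1.04 (SE 0.18, limma adjusted p = 7.64e-05). The later rise from HE2 to progenitors, 0.56 (SE 0.18, limma adjusted p = 0.0442), was called but rested on samples that differ widely, and it was lost under 16 of 39 alternatives.

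The methyltransferases changed less. Ezh2 was at 49.4 and 52.2 FPKM in WT Flk1+ cells and 29 and 21.5 FPKM in HE1, a fall of 1.02 on the log2 scale (SE 0.19, limma adjusted p = 0.000139), and no other step of Ezh2 was called. Its paralogue Ezh1, the methyltransferase associated with cells that divide little, was at 14.8 and 20.7 FPKM in HE1, 11.2 and 13.2 FPKM in HE2, and 6.31 and 7.92 FPKM in progenitors. Ezh1 samples of HE1 overlapped with those of Flk1+ cells, and those of ESC with HE2. Only the last step of Ezh1 was called, with a log2 fold change of -0.77 (SE 0.22, limma adjusted p = 0.0214), and it was lost without progenitor replicate 1 or HE2 replicate 2 of WT. The Ezh2 to Ezh1 ratio of FPKM was therefore lowest in HE1, at 1.96 and 1.04 in the WT samples, against 7.34 and 3.8 in progenitors, without overlap.

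Among the PRC1 genes, Cbx7, the chromobox gene that predominates in embryonic stem cells, had the steepest course of the 9. The WT samples were at 35.5 and 37.6 FPKM in ESC, 3.9 and 4.8 FPKM in Flk1+ cells, 1.26 and 1.14 FPKM in HE1, 0.594 and 0.736 FPKM in HE2, and 0.792 and 0.684 FPKM in progenitors. All neighbouring populations were separate except HE2 and progenitors, and the highest mean was 54.9 times the lowest. Cbx7 fell by 3.05 between ESC and Flk1+ cells (SE 0.21, limma adjusted p = 6.21e-10), by 1.77 between Flk1+ cells and HE1 (SE 0.21, limma adjusted p = 1.07e-06) and by 0.77 between HE1 and HE2 (SE 0.21, limma adjusted p = 0.0136), all on the log2 scale. The last of these was lost under 5 of 39 alternatives, among them a pseudocount of 1 (-0.40) and omission of WT replicate 1 of HE1 or HE2.

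Cbx2, another chromobox gene, peaked in Flk1+ cells. The WT samples were at 10.1 and 11.4 FPKM in ESC, 23.4 and 21.3 FPKM in Flk1+ cells, and between 7.24 and 10.2 FPKM in the 3 later populations, which overlapped one another. The gain of 1.05 (SE 0.17, limma adjusted p = 3.16e-05) and the loss of 1.37 (log2 fold change -1.37, SE 0.17, limma adjusted p = 1.49e-06) were both called. The ratio of Cbx2 to Cbx7 FPKM consequently went from 0.285 and 0.303 in WT ESC to 12.9 and 11.7 in WT progenitors.

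Bmi1 was the only one of the 9 genes whose mean level was higher in each successive WT population. It was at 1.29 and 2.39 FPKM in ESC, 6.63 and 5.02 FPKM in Flk1+ cells, 6.67 and 6.61 FPKM in HE1, 11.6 and 9.63 FPKM in HE2, and 26.9 and 10.4 FPKM in progenitors. HE1 overlapped with Flk1+ cells and the widely spaced progenitor samples overlapped with HE2. Only the first step was called, at 1.66 (SE 0.40, limma adjusted p = 0.00182). The standard error of Bmi1 was the largest of the 9 genes.

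Rnf2 was the steadiest gene. Over all 30 samples it ranged from 24.5 to 43.5 FPKM with a median of 30.7 FPKM, a 1.77-fold range, compared with 83.5-fold for Cbx7. In WT cells it fell between Flk1+ cells (43.4 and 41.1 FPKM) and HE1 (28.1 and 30.2 FPKM) by 0.53 on the log2 scale (SE 0.12, limma adjusted p = 0.00106). Corrected for transcript GC content and length, that step was -0.18 and no longer called.

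To ask whether loss of Sp1 DNA binding altered Polycomb subunit expression, each Sp1 ΔDBD/ΔDBD population was compared with WT cells of the same population. Cbx7 stood out: it was 7.88-fold higher in HE1, 10.7-fold higher in HE2 and 6.42-fold higher in progenitors by the ratio of means, and these were among the largest rises of any gene. Over the 9 genes and 5 populations 6 of 45 tests were called, 5 higher and 1 lower, against 8.02% of such tests over all genes. By population the calls numbered 1 in ESC (6.06% of all genes), 0 in Flk1+ cells (5.54%), 2 in HE1 (10%), 2 in HE2 (9.67%) and 1 in progenitors (8.78%). In Flk1+ cells 1 gene, Cbx7, passed an unadjusted limma p of 0.05. Besides Cbx7, the calls were Rnf2 in ESC, Eed in HE1 and Cbx2 in HE2, 1 population each. The samples of the groups did not overlap for 6, 7, 4, 5 and 3 of the 9 genes in the 5 populations, where 45.2%, 55.2%, 50%, 45.7% and 44.5% of all genes did not.

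In ESC, Cbx7 was at 49.6 and 46.4 FPKM in Sp1 ΔDBD/ΔDBD cells and 35.5 and 37.6 FPKM in WT cells. In Flk1+ cells it was at 6.94 and 5.36 FPKM against 3.9 and 4.8 FPKM. The mutant samples lay above the WT samples in both populations, but the differences of 0.39 (95% interval -0.05 to 0.83, limma adjusted p = 0.337) and 0.49 (0.05 to 0.93, limma adjusted p = 0.211) were not called.

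In HE1 the separation was wide, with 9.51 and 9.37 FPKM in Sp1 ΔDBD/ΔDBD cells against 1.26 and 1.14 FPKM in WT cells. In HE2 the levels were 7.1 and 7.09 FPKM against 0.594 and 0.736 FPKM. In progenitors they were 4.43 and 5.04 FPKM against 0.792 and 0.684 FPKM. No mutant sample came near a WT sample in these 3 populations. The log2 fold changes were 2.88 in HE1 (SE 0.21, limma adjusted p = 4.63e-08), 3.24 in HE2 (SE 0.21, limma adjusted p = 1.34e-08) and 2.53 in progenitors (SE 0.21, limma adjusted p = 5.45e-07). Ordered from the greatest log2 fold change, Cbx7 ranked 31, 23 and 52 of 14525 genes. An exact permutation test of 2 samples against 2 cannot give a p below 0.333, so these p-values rest on the spread estimated over all genes and groups.

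The Cbx7 difference depended on the population. Of 72 tests of whether an effect in a later population differed from that in ESC, 4 were called for the 9 genes (2.13% over all genes), and 3 of these were Cbx7 in Sp1 ΔDBD/ΔDBD cells. Relative to the difference in ESC, it was larger by 2.49 in HE1 (SE 0.30, limma adjusted p = 0.00013), by 2.85 in HE2 (SE 0.30, limma adjusted p = 3.55e-05) and by 2.14 in progenitors (SE 0.30, limma adjusted p = 0.000995) on the log2 scale. Over all genes 3.99%, 2.62% and 3.15% were called in these comparisons. The Cbx7 difference widened at the step from Flk1+ cells to HE1. There the change in Sp1 ΔDBD/ΔDBD cells exceeded that in WT cells by 2.39 (SE 0.30, limma adjusted p = 0.000462). This was the only 1 of 72 differences of steps called for the 9 genes (1.1% over all genes and 1.53% at this step). At the step from ESC to Flk1+ cells the difference was 0.09 (95% interval -0.53 to 0.72). In Sp1 ΔDBD/ΔDBD cells the level of Cbx7 thus went from 48 FPKM in ESC through 6.15 in Flk1+ cells to 9.44 in HE1, 7.09 in HE2 and 4.74 in progenitors, so that the sorted mutant cells lay above the WT cells and far below mutant ESC.

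**Figure D2:**
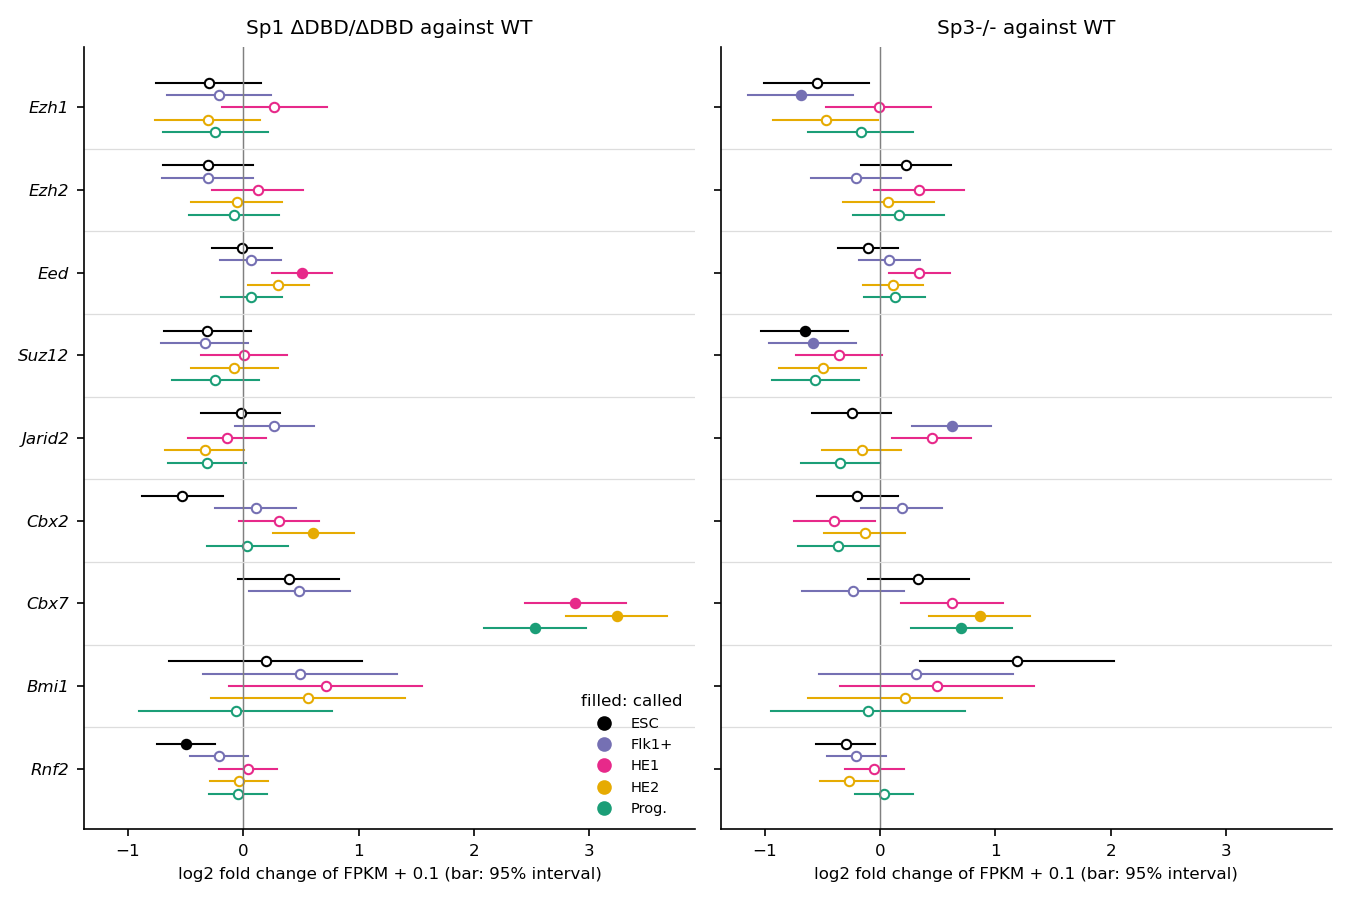
Log2 fold change of FPKM + 0.1 against WT for the 9 genes in the 5 populations, with Sp1 ΔDBD/ΔDBD in one panel and Sp3-/- in the other. Points are limma estimates with their 95% interval and are filled where the adjusted p was under 0.05. The 3 filled Cbx7 points of Sp1 ΔDBD/ΔDBD HE1, HE2 and progenitors lie between 2.53 and 3.24, and every other point lies between -0.69 and 1.19.

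The ESC marker sum was 0.142 to 0.632 FPKM in WT HE1 and 0.487 to 0.568 FPKM in Sp1 ΔDBD/ΔDBD HE1. In HE2 it was 0.270 to 0.370 FPKM against 0.553 to 2.16 FPKM, and in progenitors 0.317 to 0.540 FPKM against 0.621 to 0.725 FPKM. The sum was higher in the mutant in HE2 and progenitors, and near 0 in all these samples beside ESC. The 5 feeder fibroblast markers summed to 13.3 to 282 FPKM over the HE1 samples, with overlap between WT and Sp1 ΔDBD/ΔDBD samples. Their sum was lower before, at 4.31 to 15.6 FPKM in ESC and 2.73 to 16.2 FPKM in Flk1+ cells. Which cells gave the HE1 values was not tested.

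No gene near Cbx7 was called higher with it. Of the 18 tested genes within 250 kb, 2 were called in HE1 (10% of all genes), 0 in HE2 (9.67%) and 1 in progenitors (8.78%). These counts are for Sp1 ΔDBD/ΔDBD against WT, and those called were lower. The median log2 fold changes of the 18 genes were -0.14, -0.24 and -0.04, and the highest value of any neighbour was 0.62. Apobec3, whose 3′ end overlaps that of Cbx7 on the opposite strand, was at 7.46 FPKM in Sp1 ΔDBD/ΔDBD HE1 against 7.57 FPKM in WT, and at 4.38 against 8.23 FPKM in progenitors, where it fell. Cbx6, another chromobox gene among these neighbours, fell in HE1 by 0.48 on the log2 scale (limma adjusted p = 0.0493).

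**Figure D3:**
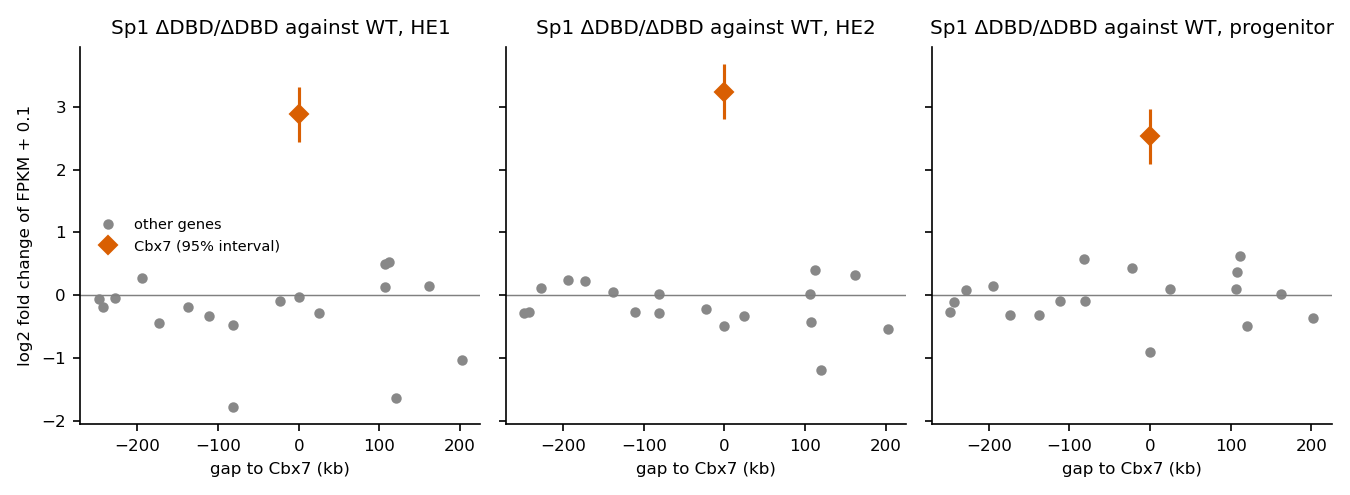
Log2 fold change of FPKM + 0.1 in Sp1 ΔDBD/ΔDBD against WT for Cbx7 (orange diamond with its 95% interval) and its 18 tested neighbours within 250 kb (circles), plotted against the distance in kb to the Cbx7 gene, in HE1, HE2 and progenitors. Cbx7 lies at 2.53 to 3.24 in the 3 panels, above the highest neighbour, which lies at 0.62.

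The other Sp1 ΔDBD/ΔDBD calls were smaller. Eed was at 28.2 and 28.7 FPKM in Sp1 ΔDBD/ΔDBD HE1 against 19.7 and 20.2 FPKM in WT, and rose 1.43-fold (log2 fold change 0.51, SE 0.13, limma adjusted p = 0.0145). Cbx2 was at 11.4 and 13.6 FPKM in HE2 against 7.24 and 9.19 FPKM, and rose 1.53-fold (0.61, SE 0.17, limma adjusted p = 0.0263). Rnf2 was at 24.5 and 31.2 FPKM in ESC against 35.1 and 43.5 FPKM, and fell by 0.50 on the log2 scale (SE 0.12, limma adjusted p = 0.0183). The samples did not overlap in these cases, but each call was lost when the populations were fitted alone and when some single samples were left out. Beside Eed in HE1, the proliferation genes Ccna2 and Bub1 rose by 0.57 and 0.55, and their part in the result was not tested. Cbx2 in HE2 differed from its effect in ESC by 1.14 (SE 0.24, limma adjusted p = 0.0128), since Cbx2 was at 7.62 and 7.2 FPKM in mutant ESC against 10.1 and 11.4 FPKM in WT (-0.53, limma adjusted p = 0.0697). Trmt1l, which overlaps Rnf2 on the other strand, was at -0.08 in ESC and rose in the other 4 populations.

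Ezh1, Ezh2, Suz12, Jarid2 and Bmi1 were called by limma in none of the 5 populations of Sp1 ΔDBD/ΔDBD cells, and 0 of these tests passed an unadjusted p of 0.05. Their log2 fold changes lay between -0.34 and 0.71, and the 95% intervals were widest for Bmi1, running from -0.13 to 1.55 in HE1. For Ezh2 the intervals over the 5 populations stayed within -0.70 and 0.52. Averaged over the populations, Cbx7 was higher by 1.91 (SE 0.09, limma adjusted p = 3.32e-11), Eed by 0.19 (SE 0.06, limma adjusted p = 0.0154), and Rnf2 was lower, at -0.15 (SE 0.05, limma adjusted p = 0.0413), which is 3 of 9 beside 31.9% of all genes. Of 38 alternatives, the Rnf2 mean was lost under 18, most of them the omission of 1 sample, and the Eed mean under 2, with sets of a genotype and number as a random effect and with chromosome medians subtracted.

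In Sp3-/- cells Suz12 was lower on average over the 5 populations, and Cbx7 was higher on average and called in HE2 and progenitors. Again 6 of 45 tests were called, 3 higher and 3 lower, against 11.5% over all genes. They numbered 1 in ESC (11.3% of all genes), 3 in Flk1+ cells (12.6%), 0 in HE1 (10.9%), 1 in HE2 (13.8%) and 1 in progenitors (8.65%). In HE1, 4 genes passed an unadjusted limma p of 0.05. The samples of the groups did not overlap for 7, 8, 7, 5 and 4 of the 9 genes, where 61.0%, 68.0%, 61.4%, 59.0% and 56.2% of all genes did not. The WT samples are the same as in the Sp1 comparison, so that the 2 comparisons are not independent.

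Suz12 was at 57.2 and 57.2 FPKM in Sp3-/- ESC against 94.4 and 85.9 FPKM in WT, and at 36.2 and 38.6 FPKM against 52.2 and 60.4 FPKM in Flk1+ cells. In the later populations it was at 23.1 and 19.5 against 28.9 and 25.7 FPKM in HE1, 29.2 and 24.4 against 42.3 and 33.6 FPKM in HE2, and 40 and 35.4 against 67.9 and 45.5 FPKM in progenitors. Every Sp3-/- sample lay below both WT samples of its population. The fall was called in ESC (-0.65, SE 0.18, limma adjusted p = 0.0241) and Flk1+ cells (-0.59, SE 0.18, limma adjusted p = 0.0383), and over the 5 populations its mean was -0.53 (SE 0.08, limma adjusted p = 4.18e-05). Each of these 2 population calls was lost on omission of any of its 4 samples. That in ESC was also lost when the population was fitted alone. That in Flk1+ cells was also lost without the intensity trend and with the replicate block. The mean held under all 38 alternatives. In HE1, HE2 and progenitors alone the values were -0.36, -0.50 and -0.56 with limma adjusted p of 0.216, 0.071 and 0.0583. No difference of the Sp3-/- effect between a later population and ESC was called for Suz12, with differences of 0.07 to 0.30.

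Suz12, Ezh1 and Cbx2 lie on chromosome 11, whose genes were lower as a whole. The median log2 fold change of its 1205 tested genes was -0.12 to -0.27 in Sp3-/- and -0.12 to -0.34 in Sp1 ΔDBD/ΔDBD cells, and it was the lowest of all chromosomes in all 5 Sp1 ΔDBD/ΔDBD populations and in Sp3-/- HE1, HE2 and progenitors. Suz12 lay at the 12.3 to 37.1 percentile of this chromosome in Sp3-/- cells. With the median of each chromosome subtracted, the mean fall of Suz12 over populations was -0.29 and still called, the single-population calls of Suz12 and Ezh1 were lost, and the number of Sp3-/- calls was 2 in place of 6. In Sp1 ΔDBD/ΔDBD cells the same subtraction added calls of Cbx2. These were a rise in HE1 (0.61, limma adjusted p = 0.0245) and in the mean over populations (0.39, limma adjusted p = 0.000474). The part of this chromosome-wide difference in the Suz12 result was not tested further. The Sp3-/- fold changes also followed transcript GC content across genes (Spearman rho of 0.463 in ESC and 0.338 in Flk1+ cells, a description across genes, which are not independent), and Suz12 transcripts are 41.6% GC. With that trend and gene length removed, the calls of Suz12 in ESC and Flk1+ cells were lost, while the mean over populations was kept.

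**Figure D4:**
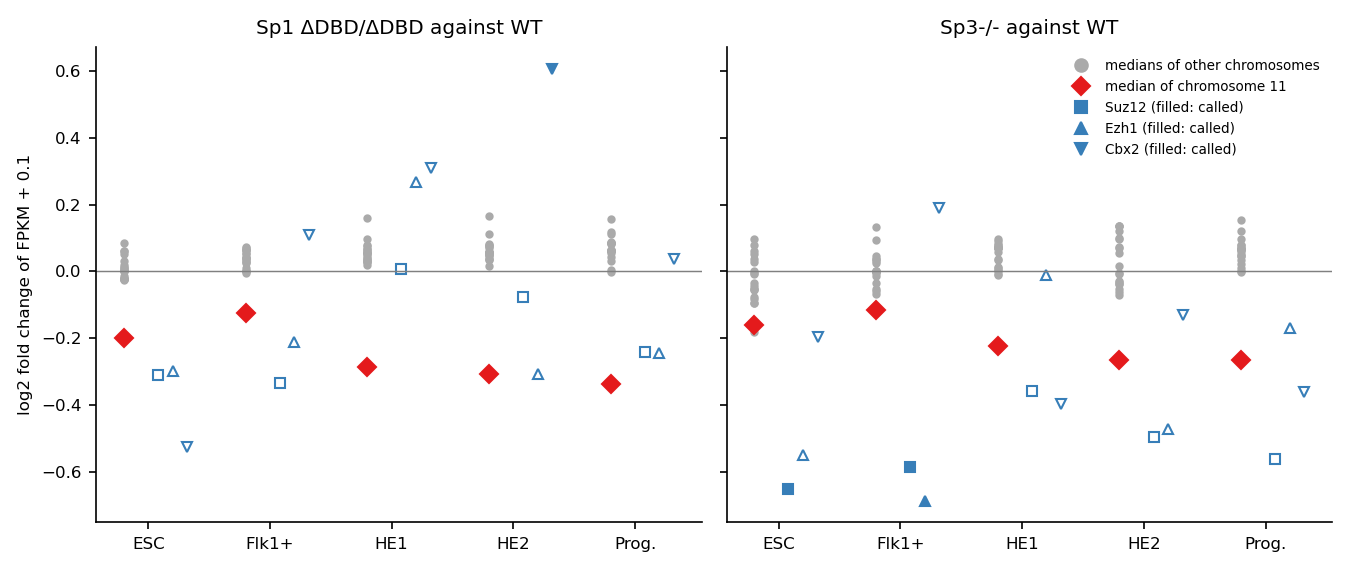
Median log2 fold change of FPKM + 0.1 against WT for each chromosome (grey points, chromosome 11 as a red diamond) beside the values of its 3 Polycomb genes, Suz12 (square), Ezh1 (upward triangle) and Cbx2 (downward triangle), in the 5 populations of Sp1 ΔDBD/ΔDBD and Sp3-/- cells. Gene symbols are filled where the adjusted p was under 0.05. Chromosome 11 lies at -0.12 to -0.34, and Suz12 in Sp3-/- cells lies below it in all 5 populations, at -0.36 to -0.65.

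Ezh1 was at 9.77 and 11.6 FPKM in Sp3-/- Flk1+ cells against 16.4 and 18.1 FPKM in WT, a fall of 0.69 on the log2 scale (SE 0.22, limma adjusted p = 0.044) that was lost under 16 of 39 alternatives. Its mean over populations was -0.38 (SE 0.10, limma adjusted p = 0.00437), and that call was lost only when chromosome medians were subtracted (limma adjusted p = 0.266). Jarid2 was at 34.8 and 37.6 FPKM in the same Sp3-/- cells against 24.6 and 22.4 FPKM in WT, and rose 1.54-fold (0.62, SE 0.16, limma adjusted p = 0.0171). The groups were separate for both genes. Beside the rise of Jarid2, which is abundant in ESC, the 5 ESC markers summed to 94.9 to 97.6 FPKM in Sp3-/- Flk1+ cells against 31.9 to 41.3 FPKM in WT, and the 4 Flk1+ mesoderm markers to 567 to 602 against 322 to 332 FPKM. Their part in the result was not tested. Omission of any 1 of these 4 samples ended the Jarid2 call.

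Cbx7 was at 1.57 and 1.05 FPKM in Sp3-/- HE2 against 0.594 and 0.736 FPKM in WT, 1.97-fold by means (0.86, SE 0.21, limma adjusted p = 0.0111). In progenitors it was at 1.27 and 1.26 FPKM against 0.792 and 0.684 FPKM, 1.71-fold (0.71, SE 0.21, limma adjusted p = 0.0423). The progenitor call was lost under 12 of 39 alternatives, among them a pseudocount of 1 (0.38), subtraction of chromosome medians, the fit of the populations alone and omission of any of its 4 samples. The HE2 call was lost in the fit alone and without WT replicate 1 or Sp3-/- replicate 1. In HE1 it was at 2.38 and 1.52 FPKM against 1.26 and 1.14 FPKM, which was not called (0.63, limma adjusted p = 0.062). The Sp3-/- samples lay above the WT samples in all 3 populations. In ESC (46.4 and 45.6 FPKM against 35.5 and 37.6) they lay above as well, and in Flk1+ cells (3.3 and 4.07 against 3.9 and 4.8 FPKM) they overlapped. The mean over populations was 0.46 (SE 0.09, limma adjusted p = 0.000721). Here 3, 5 and 3 of the 18 neighbours of Cbx7 were called in HE1, HE2 and progenitors, of which 3, 4 and 2 were higher. Over all genes 10.9%, 13.8% and 8.65% were called in these comparisons. Apobec3, which overlaps Cbx7, was called lower in HE2 (-0.89) and progenitors (-1.16).

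Ezh2, Eed, Cbx2, Bmi1 and Rnf2 were called by limma in none of the 5 Sp3-/- populations, while Cbx2 and Rnf2 passed an unadjusted p of 0.05 in 2 populations each, Eed and Bmi1 in 1 each and Ezh2 in 0. The largest of their values was Bmi1 in ESC, at 3.91 and 4.4 FPKM against 1.29 and 2.39 FPKM in WT, with a log2 fold change of 1.19 (95% interval 0.35 to 2.03, limma adjusted p = 0.0624). The samples did not overlap. The value was 1.52 and called when GC content and length were corrected (limma adjusted p = 0.017). Commd3, the neighbouring gene upstream of Bmi1 on the same strand, rose there by 1.16. Commd3 also rose in Sp1 ΔDBD/ΔDBD ESC, by 1.08, where Bmi1 was at 0.19 and not called. Rnf2 was called for its mean over populations (-0.16, SE 0.05, limma adjusted p = 0.0259), a value that turned to 0.037 when GC content and length were corrected and was lost under 9 other alternatives. With Ezh1, Suz12 and Cbx7 this made 4 of 9 mean effects called in Sp3-/- cells, beside 40.5% of all genes.

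The mutants were also compared directly with each other. WT samples did not enter these differences, but they entered the estimate of spread in the fit of all 30 samples. Of 45 tests 7 were called, 1 higher in Sp3-/- and 6 lower, beside 11.6% over all genes, and these concerned Cbx7, Cbx2 and Jarid2. Cbx7 was lower in Sp3-/- than in Sp1 ΔDBD/ΔDBD cells by log2 fold changes of -0.72 in Flk1+ cells (7.39% of all genes called), -2.25 in HE1 (13.6%), -2.37 in HE2 (15.9%) and -1.82 in progenitors (11.6%), with limma adjusted p of 0.0422, 1.36e-06, 5.76e-07 and 1.86e-05. The HE1 and HE2 calls of Cbx7 held under all 39 alternatives, the progenitor call under all but the fit alone, and the Flk1+ call was lost under 12, among them the fit alone and omission of any of its 4 samples. Cbx2 was at 6.53 and 6.4 FPKM in Sp3-/- HE1 against 11.1 and 10.2 FPKM in Sp1 ΔDBD/ΔDBD HE1 (-0.71, limma adjusted p = 0.0084), and at 6.64 and 8.33 FPKM against 11.4 and 13.6 FPKM in HE2 (-0.74, limma adjusted p = 0.00569). Jarid2 was higher in Sp3-/- HE1, at 17.8 and 16 FPKM against 9.68 and 13 FPKM (0.59, limma adjusted p = 0.0213). No sample overlapped in these comparisons. The Cbx2 and Jarid2 calls were lost in the fit alone and without some single samples. In ESC 0 of the 9 genes were called by limma (9.67% of all genes), and 2 passed an unadjusted p of 0.05.

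Ratios of alternative subunits within a sample put these values together. The Cbx2 to Cbx7 ratio was 7.06 and 7.24 in WT HE1, 1.16 and 1.09 in Sp1 ΔDBD/ΔDBD HE1 and 2.75 and 4.22 in Sp3-/- HE1. In progenitors it was 12.9 and 11.7 in WT, 1.96 and 1.96 in Sp1 ΔDBD/ΔDBD and 4.75 and 6.47 in Sp3-/- cells. The 3 genotypes did not overlap in either population, with Cbx7 nearly level with Cbx2 in Sp1 ΔDBD/ΔDBD HE1. Rnf2 exceeded its paralogue Ring1, the alternative ubiquitin ligase, in every group, by 20.9 and 29.0 times in WT ESC, 4.88 and 8.32 times in Sp1 ΔDBD/ΔDBD ESC and 6.62 and 7.88 times in Sp3-/- ESC. The Bmi1 to Pcgf2 ratio, between alternative ring finger partners of Rnf2, was 0.123 and 0.176 in WT ESC and 4.03 and 2.06 in WT progenitors. In HE1 it was 0.912 and 1.3 in WT and 2.69 and 2.76 in Sp1 ΔDBD/ΔDBD cells, without overlap.

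**Figure D5:**
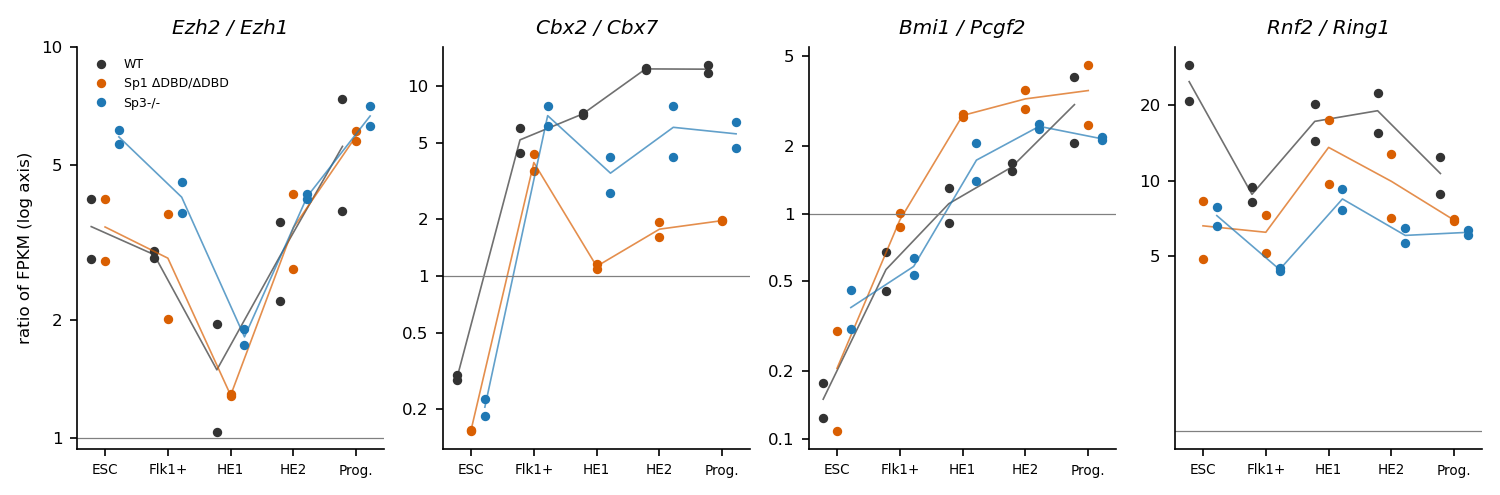
Ratio of the FPKM of 2 alternative subunits in the same sample, on a log axis, for Ezh2 to Ezh1, Cbx2 to Cbx7, Bmi1 to Pcgf2 and Rnf2 to Ring1, by population. Points are samples, lines join the means of the 2 replicates of WT (black), Sp1 ΔDBD/ΔDBD (orange) and Sp3-/- (blue), and the grey line marks a ratio of 1. The Cbx2 to Cbx7 ratio lies below 1 in ESC of all genotypes and at 12.3 in WT progenitors, 5.61 in Sp3-/- and 1.96 in Sp1 ΔDBD/ΔDBD progenitors.

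The rest of the Polycomb machinery was followed through 35 further genes in 3 lists: 7 other PRC2 subunits, 22 other PRC1 subunits and 6 antagonists, the demethylases and deubiquitinase subunits that remove the marks. Against WT, 11 of 175 tests were called in Sp1 ΔDBD/ΔDBD cells (6 higher, 5 lower) and 20 of 175 in Sp3-/- cells (18 higher, 2 lower), beside 8.02% and 11.5% of all tests. The PRC2 list gave 1 of 35 and 4 of 35, the PRC1 list 10 of 110 and 16 of 110, and the antagonists 0 of 30 and 0 of 30 (limma), with 9 and 2 at an unadjusted p under 0.05. Averaged over the populations, 27 of 70 effects of the 35 genes were called, beside 36.2% of all such tests. Of the 12 mean effects of antagonists 4 were called, near that share, and these were higher. Called or not, 4 of the 6 antagonists had a mean effect above 0 in each mutant. Kdm6b was lower in Sp1 ΔDBD/ΔDBD cells and just missed the threshold (-0.33, limma adjusted p = 0.0501).

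Ring1 was called higher in ESC of both mutants. Its mean was 4.39 FPKM in Sp1 ΔDBD/ΔDBD ESC against 1.59 FPKM in WT (1.39, limma adjusted p = 0.00486), and in Sp3-/- ESC it rose by 1.41 (limma adjusted p = 0.00326). Ring1 was also called in Sp1 ΔDBD/ΔDBD HE2 (0.90) and in Sp3-/- HE1 (0.93) and HE2 (1.31). Phc1, a polyhomeotic subunit of canonical PRC1, rose in Flk1+ cells and HE2 of both mutants and in Sp3-/- HE1, by 0.53 to 0.72. Kdm2b, which binds unmethylated CpG and carries variant PRC1, rose in HE2 of both mutants (0.55 and 0.75) and in Sp3-/- HE1 (0.68). Pcgf5, a ring finger subunit of variant PRC1, fell in Sp1 ΔDBD/ΔDBD ESC (-0.74) and Flk1+ cells (-0.93) and in Sp3-/- Flk1+ cells, where it was at 8.51 against 22.3 FPKM (-1.39, limma adjusted p = 0.000612). Auts2, which joins Pcgf3 or Pcgf5 complexes, rose in Sp1 ΔDBD/ΔDBD ESC (0.71) and Sp3-/- Flk1+ cells (0.78). The chromobox gene Cbx6 rose in Sp3-/- ESC (0.50), HE2 (0.54) and progenitors (0.63), and Cbx8 rose in Sp3-/- ESC from a low level, 0.813 against 0.22 FPKM. Scml2 fell in Sp1 ΔDBD/ΔDBD ESC, to 0.341 against 1.17 FPKM.

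Among other PRC2 subunits, Epop, an accessory factor of embryonic stem cells, was at 29.0 FPKM in Sp3-/- Flk1+ cells against 13.3 FPKM in WT (1.12, limma adjusted p = 0.00773) and at 10.4 against 4.07 FPKM in HE2 (1.33, limma adjusted p = 0.0026), and it fell in Sp1 ΔDBD/ΔDBD progenitors to 2.93 against 6.31 FPKM (-1.03, limma adjusted p = 0.0154). Phf1, a Polycomb-like subunit, rose in Sp3-/- HE2 (0.89), and the histone-binding subunit Rbbp7 fell in Sp3-/- Flk1+ cells, at 137 against 213 FPKM (-0.63, limma adjusted p = 0.00112). In WT cells 51 of 140 step tests of the 35 genes were called, 22 higher and 29 lower, beside 35.1% of all such tests. From ESC to progenitors Epop was lower by 3.42 (log2 fold change -3.42), Phc1 by 2.63 (-2.63), Pcgf6 by 1.65 (-1.65) and Mtf2 by 1.53 (-1.53), while Yaf2 (2.36), Phc2 (2.29) and the demethylase gene Kdm6b (1.43) were higher, as a description of the group means.

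Of 16 genes known as Polycomb targets in embryonic stem cells, 8 were in the table. In Sp3-/- cells 4 of 40 tests were called, all higher, and in Sp1 ΔDBD/ΔDBD cells 1 of 40, lower, beside 11.5% and 8.02% of all tests. Cdkn2a, which encodes cell cycle inhibitors, was at 4.08 FPKM in Sp3-/- ESC against 0.746 FPKM in WT (2.38, limma adjusted p = 0.0172) and at 0.869 against 0.0456 FPKM in Flk1+ cells. In Sp1 ΔDBD/ΔDBD ESC and Flk1+ cells it was at 2.20 and 0.356 FPKM, not called in single populations, and its mean over populations was higher in both mutants (1.25 in Sp1 ΔDBD/ΔDBD, limma adjusted p = 0.00182, and 1.36 in Sp3-/-, limma adjusted p = 0.000643). Gata4, an endoderm and heart regulator, rose in Sp3-/- ESC at levels under 1 FPKM, 0.861 against 0.179 FPKM in WT (1.80). It also rose in Sp3-/- progenitors, at 3.81 against 1.31 FPKM (1.51). Sox17 was called lower in Sp1 ΔDBD/ΔDBD progenitors, where both means, 0.00706 and 0.176 FPKM in WT, were near 0. Of 12 proliferation genes, 8 of 60 tests were called in Sp1 ΔDBD/ΔDBD cells (6 higher) and 15 of 60 in Sp3-/- cells (13 higher), beside 8.02% and 11.5% of all tests. All 12 fell between Flk1+ cells and HE1 in WT, where 29.5% of all genes did, the step at which 7 of the 9 Polycomb genes fell. A link between these falls was not tested.

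The genes whose profile over the 15 group means was most like that of each subunit were taken by Pearson correlation among 12016 genes, as a description in which points share genotypes, lines and normalisation. Eed was most like Mybl2 (r = 0.99), Tet1 (0.99) and Zfp42 (0.989), Jarid2 most like Ythdf1 (0.986), Napsa and Slc27a2, and Cbx7 most like Lipo3 (0.973), Zfp982 (0.969) and Ddx4 (0.967). Suz12 was most like Trnt1 (0.966), Cebpz and Chac2, and Bmi1 most like Dnajc1 (0.969), Fbxl22 and Smarcc2. Among those most like Ezh1 were Sh3bp4 (0.952) and Nckap1, most like Ezh2 Malsu1 (0.945), Nubpl and Twnk, most like Cbx2 Kif3a (0.931), Hoxb1 and Dclk1, and most like Rnf2 Lrif1 (0.931), Tbc1d32 and Zfp867. Among the 9 genes themselves, Eed and Jarid2 were the most alike (r = 0.966), and Bmi1 and Jarid2 the most opposed (r = -0.855).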

How the data were processed

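Total RNA was depleted of ribosomal RNA and sequenced as stranded paired-end libraries. The deposited values were FPKM per gene, which, by the study's methods, the authors made by trimming reads, aligning them with HISAT2 2.1.0 to mm10 and quantifying with StringTie 1.3.3, discarding genes that never exceeded 1 FPKM and then quantile normalising the 30 samples. Read counts and depth were not recoverable from these values, and whether strand was used in quantification is not given in the sources used here. Samples were grouped by their labels into 15 population and genotype groups of 2.

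Log2(FPKM + 0.1) was fitted with limma 3.58.1 (R 4.3.3) to the 15 group means, with an intensity trend over the 14525 genes that exceeded 1 FPKM in any sample. The fit had 15 residual and 3.92 prior degrees of freedom. Tests were two-sided, and p-values were adjusted by the Benjamini-Hochberg method for each comparison separately, with a threshold of 0.05. The fit was tested on simulated data. The 9 genes, the gene lists and the comparisons were chosen with earlier results of these data known. Named genes outside the 9 were those called in at least 2 of the 10 mutant comparisons, plus the 2 largest rises and the 2 largest falls called for each mutant and list, and the 2 largest rises and falls from ESC to progenitors in WT among genes above 3 FPKM in either. The 3 genes most alike each subunit were taken by Pearson correlation. Not all of these are reported here. Gene positions, GC content and length were from GENCODE (GRCm38), matched for 99.2% of genes tested, and promoter windows from RefSeq (GRCm38.p6).

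Alternatives were a pseudocount of 1, no filter, a filter on group means above 3 FPKM, no intensity trend, a fit of the compared populations alone, sets of a genotype and replicate number as a random effect, a replicate block, removal of chromosome medians, removal of GC and length trends, and omission of each sample.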

Additional observations from a re-analysis of the deposited data

Results flagged for a closer look

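For 2 of the 9 genes, the effect of Sp1 ΔDBD/ΔDBD differed between populations by a tested interaction in limma. Cbx7 exceeded its ESC effect by 2.49 in HE1, 2.85 in HE2 and 2.14 in progenitors, on the log2 scale, and its step from Flk1+ cells to HE1 differed from that of WT cells by 2.39. These 4 Cbx7 values share samples and were kept under all 39 alternatives. Both mutant samples lay above both WT samples in each of these populations. For Cbx2, the effect in HE2 exceeded that in ESC by 1.14, with mutant samples below WT in ESC and above WT in HE2. That call was lost when the populations were fitted alone and without ESC WT replicate 2, HE2 WT replicate 1 or HE2 Sp1 ΔDBD/ΔDBD replicate 2, with a limma adjusted p of at most 0.0929 over the alternatives. No explanation was tested for either gene.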

How the results depend on the processing

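Of 47 called values of the 9 genes, 24 kept their call under all alternatives run and 23 lost it under at least 1. Cbx7 in Sp1 ΔDBD/ΔDBD HE1, HE2 and progenitors and the mean effects of Sp3-/- on Suz12 and Cbx7 were among those kept. With GC content and gene length corrected, calls numbered 10 in place of 6 for Sp1 ΔDBD/ΔDBD and 9 in place of 6 for Sp3-/- against WT. They numbered 13 in place of 7 for mean effects and 13 in place of 7 between mutants. Later populations against ESC gave 7 in place of 4, and differences of steps 3 in place of 1. Other Polycomb genes gave 18 in place of 11 in Sp1 ΔDBD/ΔDBD and 25 in place of 20 in Sp3-/- cells. The mean effect of Sp3-/- on Rnf2 turned from -0.16 to 0.037. Fitted alone, with fewer samples, the compared populations gave 3 calls for Sp1 ΔDBD/ΔDBD and 2 for Sp3-/- against WT, 2 between mutants, 2 differences of steps, and 1 and 8 for other Polycomb genes in Sp1 ΔDBD/ΔDBD and Sp3-/- cells, the last in place of 20. Mean effects cannot be given by that fit. Subtraction of chromosome medians left 2 Sp3-/- calls and gave 7 in place of 6 for Sp1 ΔDBD/ΔDBD. With sets of a genotype and number as a random effect, 4 mean effects, 8 later effects and 2 differences of steps were called, and a pseudocount of 1 gave 2 differences of steps. The causes were not tested.

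Leaving out 1 sample gave 5 to 6 calls for Sp1 ΔDBD/ΔDBD against WT, 3 to 8 for Sp3-/-, 5 to 9 for mean effects, 5 to 8 between mutants, 3 to 6 for later effects, 15 to 19 for WT steps, 1 to 2 for differences of steps, and 5 to 17 and 14 to 24 for other Polycomb genes in Sp1 ΔDBD/ΔDBD and Sp3-/- cells. The Sp3-/- count was 3 without either Sp3-/- ESC sample or any WT or Sp3-/- Flk1+ sample. The count of other Polycomb genes in Sp1 ΔDBD/ΔDBD cells was 5 without WT Flk1+ replicate 2 and 17 without either Sp1 ΔDBD/ΔDBD progenitor sample.

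Same-numbered samples of WT and Sp1 ΔDBD/ΔDBD deviated together (r of 0.21 to 0.536 over 9134 genes) and those of WT and Sp3-/- less so (0.0387 to 0.137). So did those of consecutive populations of Sp1 ΔDBD/ΔDBD cells (0.283 to 0.703). In WT cells r was 0.462 for HE1 with HE2, 0.479 for HE2 with progenitors and -0.0273 to 0.0466 before. In Sp3-/- cells it was 0.0564 to 0.214. The labels do not say that a number marks a shared culture, so the populations of a genotype may not be independent. With the replicate block, differences of steps numbered 2 in place of 1, and the other counts of the 9 genes were 6 for Sp1 ΔDBD/ΔDBD, 5 for Sp3-/-, 9 mean effects, 6 between mutants, 5 later effects and 19 WT steps. With 2 samples per group, precision is limited by the spread shared across groups.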
